A study of Mus musculus with 61 samples.

Results

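The IL-27 arm of this series follows mouse CD4 T cells, naive at the start, through stimulation with IL-27. The comparison described here sets its 5 late arrays (42 and 42d, 48, 54 and 54d) against its 6 middle arrays (14, 16 and 16d, 18, 20 and 20d). These are 11 of the 52 HT_MG-430A arrays and of the 61 arrays of the whole series, and they were taken by the arm, number and suffix in each array's title. The cells came from C57BL/6 mice, whose age the labels do not state, and were cultured with an antibody to CD3 at 1 µg/ml and, at the same dose, a second antibody that the protocol text writes as one to CD8. IL-27 was added at 25 ng/ml. That protocol text is shared by every array, those titled ctrl included, so the arm rests on the titles alone. The titles give bare numbers, read here as hours, and do not say what the suffix d stands for. The 11 ctrl arrays of the same times and suffixes are used as the background of the course: 6 at 14 to 20 h and 5 at 42 to 54 h. The labels do not tell cultures or animals apart. The p-values therefore cover array-to-array spread alone, which may be technical and which takes in the differences between times inside a window.

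IL-27 is a cytokine of the IL-12 family that signals through a receptor made of Il27ra and the shared chain gp130 (Il6st) and activates STAT3. In CD4 T cells it is known for an early interferon-like response, for induction of the T-box factor T-bet, and for differentiation of type 1 regulatory (Tr1) cells, which make IL-10 without expressing Foxp3. A naive T cell stimulated through its receptor first grows, making ribosomes and metabolic enzymes, then copies its DNA and divides, and later acquires effector genes.

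Values are the deposited intensities, and differences are late minus middle means on the log2(intensity + 32) scale, which understates the change of dim genes; errors on differences are SE and errors on means are SD. The brightest probe set stood for a gene, and a gene was tested when 5 or more arrays of the fit showed it above the array's median. In the IL27 course, a gene below the median on all 6 middle arrays could pass only through all 5 late ones. Its lack of overlap is then no added evidence. In the fit over both arms, a gene dim in either arm could pass through the other alone. Medians of the 22 arrays used ran from 31.0 to 35.9, and precision is limited by how many arrays there are. The defining T cell markers were present throughout: all 8 with a named probe set (Cd4, Cd3d, Cd3e, Cd3g, Cd247, Zap70, Lat and Cd5) lay above the median on every one of the 11 IL27 arrays, with a summed intensity of 12881 to 14853 at 14 to 20 h and 12939 to 15305 at 42 to 54 h. Of 13 myeloid and dendritic markers the sum was 201 to 388 and 313 to 391, of 8 B cell markers 760 to 1416 and 478 to 1290, of 5 NK markers 56 to 67 and 61 to 104, and of 5 erythroid and platelet markers 67 to 80 and 64 to 72. Ighm was the one B cell marker above the median on all 11 arrays. Among the myeloid and dendritic markers none was above the median on all 6 middle arrays, and on all 5 late arrays only Batf3, a transcription factor that T cells also express, was. Of both CD8 markers the sum was 56 to 83 and 92 to 125, and Cd8b1 rose by 0.47 ± 0.09. The part of such markers in the results below was not tested. In bulk samples, a change in the share of cells that express a gene and a change in RNA per cell cannot be told apart.

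Arrays of both arms stood apart. The IL27 20 h array without suffix was the middle array nearest the late ones (mean correlation over tested genes 0.916, against 0.870 for the 14 h array), and without it 4590 genes were called in place of 4566. The late array 42d lay apart from its group in 5 of the genes named below (Bcl6, Bach2, Il3, Ccl22 and Ccnd2), and without it 4554 were called. The ctrl 48 h array is described with the ctrl arm.

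The course of the IL27 arm was broad. Of 6643 genes tested, 2113 were called higher at 42 to 54 h (31.8%) and 2453 lower (36.9%) at a Benjamini-Hochberg adjusted p under 0.05 in limma. A difference of 2-fold or more was found for 521 higher genes (7.84%) and 215 lower genes (3.24%). The median difference over all genes tested was -0.04. After scaling the arrays to one median the median difference was -0.15, and 35.1% of called genes were higher against 46.3% without it. Differences of about that size therefore have no settled sign. The late and middle arrays did not overlap for 3280 of the 6643 genes tested, and 3278 of these were among the 4566 called. Calls and lack of overlap rest on the same differences, so lack of overlap is no separate support. For genes below the median on every middle array, the filter fixed the lack of overlap in advance.

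The largest rises included several genes that were at or near the background level in the middle window. Tgm2, a transglutaminase that crosslinks proteins, was at or below 11.5 on the 6 middle arrays and at 1590.5, 964, 2929.9, 3621 and 2476 on the late arrays in the order 42, 42d, 48, 54 and 54d, a difference of 5.65 ± 0.26 (adjusted p = 4.6e-09). The 4 arrays of 25 to 36 h lay between, from 17.8 to 532. Tgm2 could pass the filter only through the late arrays, so its lack of overlap was fixed by the filter. Over its 6 probe sets the difference ranged from -0.01 to 5.65. Of the 49 named and called genes with 2 or more probe sets, 6 had a set of the opposite sign: Tgm2, Anxa2 (from -0.03), Mt1, H2-D1, Rps6 (from -0.07) and Cox8a (from -0.16). Others kept the sign but had a set near no change. Examples are Cdca3 (0.003 to 4.04), Rora (0.03 to 1.62), Il6st (-1.02 to -0.01), Ahr (-0.75 to -0.02), Gadd45b (-1.14 to -0.03) and Bcl2l1 (-0.59 to -0.01). Cth, the cystathionine lyase that makes cysteine, had a middle median of 14.2 and late values of 700.1, 1794, 749.8, 651 and 1573 (difference 4.45 ± 0.23). Both arrays with suffix d were the highest of that group. Anxa2, an annexin that binds membrane phospholipids, rose from 61.6 ± 5.43 to 2218 ± 1106 (difference 4.42 ± 0.28) and Vim, the intermediate filament vimentin, from 117 ± 39.3 to 3191 ± 1863 (difference 4.22 ± 0.38). Both were lowest at 42 h within the late window and higher still at 60 to 72 h, where Vim reached 7629 ± 1290.1 (3 arrays). Tg, which encodes thyroglobulin, rose from 50.5 ± 22.3 to 1595 ± 809 (difference 4.17 ± 0.33). Bnip3, a mitochondrial protein of the BCL2 family that hypoxia induces, rose from 78.9 ± 6.56 to 2014 ± 802 (difference 4.10 ± 0.23).

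Division genes rose together. Of the 44 mitosis genes listed, 43 had a named probe set, all 43 were tested, and all 43 were higher late, with a median difference of 2.52 against -0.04 over all genes; under the other settings tried 41 to 43 were called. Ccnb2, a cyclin that drives entry into mitosis, ran from 14.9 to 31.5 with a median of 18.6 on the middle arrays and was 832, 856, 882, 937 and 955 on the late ones (difference 4.13 ± 0.08, adjusted p = 8.9e-13). The late arrays lay within a narrow band. The middle values of Ccnb2 lay near or below the array medians, so the lack of overlap was largely fixed by the filter. Ube2c, the ubiquitin-conjugating enzyme of the anaphase-promoting complex, ran from 38.9 to 251 (median 69.8) and then was 2554, 2996, 2453, 2748 and 2977 (difference 4.58 ± 0.28). Mki67, a marker of proliferating cells, ran from 28.5 to 322 (median 50.02) and was 1794, 1559, 2036, 2097 and 1739 late (difference 4.21 ± 0.36). For Ube2c and Mki67 alike, the highest middle value was that of the 20 h array without suffix, and its partner 20d came next. The spindle protein Nusap1 (difference 4.21 ± 0.18), the cell division protein Cdca3 (difference 4.04 ± 0.25) and the centromeric histone variant Cenpa (difference 3.70 ± 0.13) followed the same course. Averaged over the list, the middle arrays ran from 6.29 to 7.82 (log2), the 4 arrays of 25 to 36 h from 9.10 to 9.40 and the late arrays from 9.35 to 9.45. The list was thus near its late level by 25 to 36 h. The ctrl arm gave 43 of 43 higher as well, with a median of 2.30.

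Mitosis genes are shown with the 120 bases of sequence before their RefSeq start (GRCm38.p6, read along the gene) because they moved together in both arms. The capitals mark matches to CCAAT, the core of the site of the factor NF-Y, and to TTTGAA, the core of the cell cycle homology region, on either strand. The set is that of the mitosis genes among the largest rises, with Cenpa, the member with the next smallest adjusted p. They lie at chr9:70421555-70421674 on the minus strand (Ccnb2), chr2:164769809-164769928 on the plus strand (Ube2c), chr5:30666766-30666885 on the plus strand (Cenpa), chr7:135716380-135716499 on the minus strand (Mki67) and chr2:119618178-119618297 on the plus strand (Nusap1).
Ccnb2: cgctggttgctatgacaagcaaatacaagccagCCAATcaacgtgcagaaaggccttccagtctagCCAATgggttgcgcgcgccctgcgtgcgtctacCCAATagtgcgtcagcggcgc
Ube2c: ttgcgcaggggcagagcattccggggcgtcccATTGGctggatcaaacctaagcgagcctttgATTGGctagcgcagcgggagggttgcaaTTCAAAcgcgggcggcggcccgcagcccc
Cenpa: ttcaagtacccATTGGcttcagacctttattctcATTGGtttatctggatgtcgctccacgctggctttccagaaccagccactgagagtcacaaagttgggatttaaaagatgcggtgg
Mki67: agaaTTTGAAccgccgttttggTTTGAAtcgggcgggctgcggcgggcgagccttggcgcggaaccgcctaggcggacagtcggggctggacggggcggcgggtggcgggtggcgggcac
Nusap1: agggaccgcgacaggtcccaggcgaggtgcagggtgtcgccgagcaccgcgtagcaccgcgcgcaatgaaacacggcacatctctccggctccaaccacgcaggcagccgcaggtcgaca
Ccnb2 shows 3 matches to CCAAT, Cenpa 2, Ube2c 2 and 1 match to TTTGAA, Mki67 2 matches to TTTGAA, and Nusap1 none of either in this window. In the whole window of the table, 250 bases before to 50 after the start, 26 of the 35 mitosis genes with an entry held CCAAT (74.3%, against 37.9% of 27025 promoters), 26 held TTTGAA (74.3% against 18.1%) and 23 held both (65.7% against 7.1%). TTCGCGC, a form of the E2F site, was in 2 of them (5.7% against 1.6%). These shares are descriptions of letters, not of binding.

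DNA replication genes did not share that uniform rise. Of 37 tested, 16 were higher, 2 lower and 19 not called (median 0.48), against 31.8% higher and 36.9% lower of all genes. With the 42 h arrays left out 10 were higher. Tk1, a thymidine kinase of the salvage pathway, rose from 89.9 ± 81.7 to 881 ± 182 (difference 3.08 ± 0.31) and Rrm1, the large subunit of ribonucleotide reductase, from 654 ± 278 to 1352 ± 150.2 (difference 1.09 ± 0.21), each with its highest middle value at 20 h. Pold2, a subunit of DNA polymerase delta, fell by 0.58 ± 0.10 and the helicase subunit Mcm2 by 0.47 ± 0.15. The Mcm2 call was lost in 5 settings besides that with the suffix d arrays alone, among them the one without suffix d arrays (adjusted p = 0.17). The other 5 members of the Mcm2 to Mcm7 helicase, Mcm3 to Mcm7, ranged from -0.10 to 0.30 and were not called. Averaged over the list, levels went from 8.33 to 9.94 within the middle window, stood at 9.85 to 10.08 at 25 to 36 h and were at 9.38 to 9.79 late, which left the 20 h array above every late array. Of the 31 replication genes with a promoter entry, 19 held CCAAT (61.3%), 3 held TTTGAA (9.7%) and 5 held TTCGCGC (16.1%).

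Of 15 G1 cyclins, CDK inhibitors and related genes tested, 9 were higher and 3 lower, against 31.8% higher and 36.9% lower of all genes. Cdkn2d, which encodes the inhibitor p19 of CDK4 and CDK6, ran from 78.3 to 203 in the middle window and was 938, 927, 1114, 1319.9 and 1546 late (difference 2.85 ± 0.18). Its relative Cdkn2c rose as well (difference 1.67 ± 0.16). Cyclin D2 (Ccnd2) fell by 0.85 ± 0.06 and its kinase Cdk4 by 0.41 ± 0.08.

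**Figure D1:**
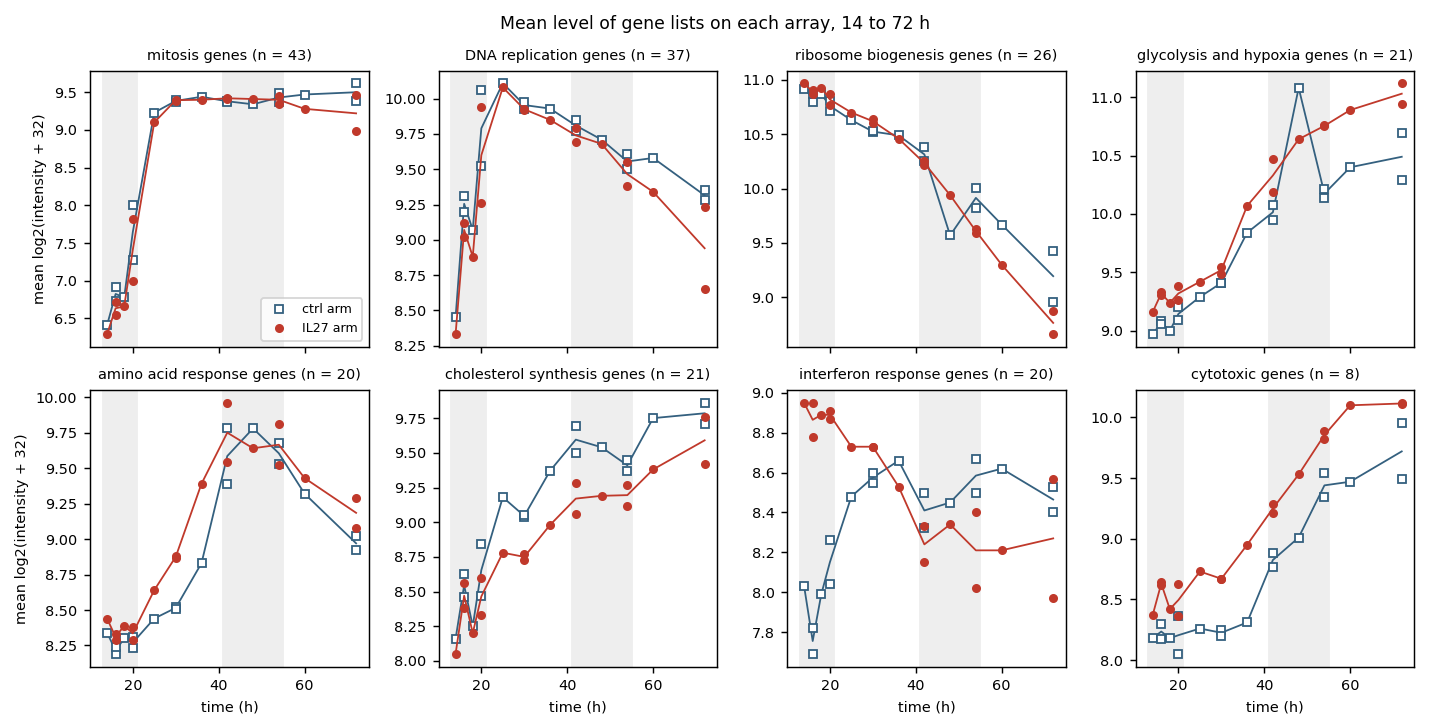
Mean log2(intensity + 32) of the tested members of 8 gene lists on each array (y axis) against time in hours (x axis); filled circles are IL27 arrays, open squares ctrl arrays, lines join the means of each time, and grey bands mark the 2 windows compared. Mitosis genes had reached 9.10 to 9.40 by 25 to 36 h in the IL27 arm, ribosome biogenesis genes fell from the 14-20 h window on, and interferon response genes fell from 8.78 to 8.95 to 8.02 to 8.40.

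Ribosome biogenesis ran the other way, set against 31.8% higher and 36.9% lower of all genes. All 26 tested members of the list were lower late (median -0.97, 12 of them 2-fold or more), and 20 to 26 were called under the other settings. Rrs1, a regulator of ribosome synthesis, ran from 1541 to 1826 (median 1684) and then was 834, 801, 680.2, 555 and 546 (difference -1.28 ± 0.11). The nucleolar protein Ebna1bp2 fell by 1.20 ± 0.10. Also among the 12 largest falls were Ccdc86, a nucleolar protein (difference -1.99 ± 0.18), Rangrf, a Ran-binding factor (difference -1.86 ± 0.16), and Timm10, a chaperone of mitochondrial import (difference -1.84 ± 0.17), all 3 with levels lower at 48 and 54 h than at 42 h. The list mean fell from 10.77 to 10.97 through 10.46 to 10.70 at 25 to 36 h to 9.59 to 10.25 late. At 60 to 72 h it was 8.66 to 9.30. In the ctrl arm 24 of the 26 were lower as well (median -0.81). Structural proteins of the ribosome were mostly not called: of 27 cytosolic ones 4 were higher and 4 lower (median 0.00). With arrays scaled to one median their median was -0.14 and 21 were lower, so no direction is given for them. Rps25 fell by 0.94 ± 0.11 and Rpl38 by 0.16 ± 0.03, while Rpl14 (0.25 ± 0.08) and Rps6 (0.22 ± 0.06) had small higher values. Of 37 oxidative phosphorylation genes 10 were higher and 6 lower (median 0.05). With arrays scaled to one median, 5 were higher and 14 lower (median -0.08), so no direction is given for this list either. The complex I subunits Ndufa5 and Ndufb7 fell by 0.79 ± 0.09 and by 0.34 ± 0.05, while the cytochrome oxidase subunits Cox8a (0.39 ± 0.05 on its brightest probe set) and Cox6a1 (0.31 ± 0.04) were higher.

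Metabolic programmes rose late, set against 31.8% higher and 36.9% lower of all genes. Of 21 glycolysis and hypoxia genes 19 were higher and 1 lower (median 0.90). Vegfa, a growth factor that hypoxia induces, ran from 13.5 to 20.9 and then was 109, 128, 125, 112 and 134 (difference 1.69 ± 0.06), while the lactate transporter Slc16a1 fell by 0.35 ± 0.08. Beyond the genes fixed by rule, and chosen after their values were seen, the glucose transporter Slc2a3 (difference 3.13 ± 0.29) and the aldolase Aldoc (difference 3.05 ± 0.33) were the largest of the list after Bnip3. Amino acid response genes gave 15 higher and 1 lower of 20 (median 0.88). Trib3, a pseudokinase target of ATF4 and CHOP, ran from 10.2 to 13.2 and then was 243, 397, 326, 296 and 295 (difference 2.95 ± 0.09). Asns, asparagine synthetase, rose from 109 ± 15.2 to 1995 ± 734 (difference 3.78 ± 0.19) and stood at 1108 ± 399 at 60 to 72 h (3 arrays). The glutamine carrier Slc1a5 fell by 0.35 ± 0.09. Of 21 cholesterol and fatty acid synthesis genes 17 were higher and 2 lower (median 0.61). Scd1, the stearoyl-CoA desaturase, ran from 12.1 to 19.9 and then was 751, 654, 773, 852 and 736 (difference 4.07 ± 0.07), and Tm7sf2, a sterol reductase, had a difference of 1.55 ± 0.10. Fasn, the fatty acid synthase, fell by 0.73 ± 0.12 and Hsd17b7, a sterol reductase of the same pathway, by 0.55 ± 0.09. Of the 16 genes of this list with a promoter entry, 15 held CCAAT (93.8%) and 1 held TTTGAA (6.2%). With the suffix d arrays alone, 9 of the cholesterol list were called higher. These 3 lists rose in the ctrl arm too, where glycolysis and hypoxia genes gave 18 higher and 1 lower of 21 (median 1.07). There amino acid response genes gave 17 higher and 1 lower of 20 (0.99), and cholesterol and fatty acid genes 18 and 1 of 21 (0.83). When both courses were compared, as described below, 1 gene of each list was called, with a lower course in the IL27 arm.

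**Figure D2:**
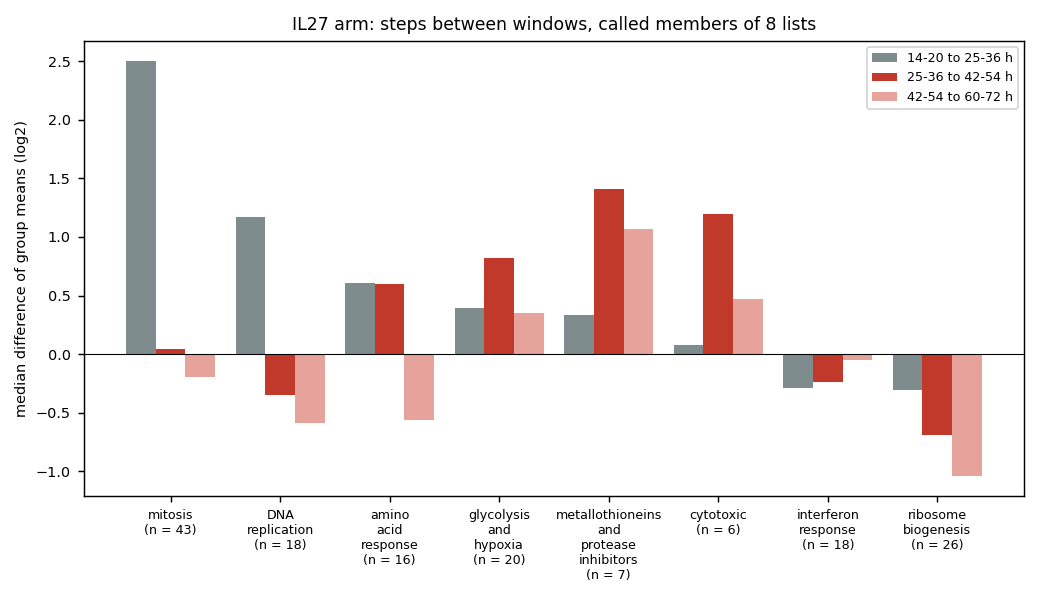
Median over the called members of 8 lists of the difference between successive window means in the IL27 arm (y axis, log2; bars for 14-20 to 25-36 h, 25-36 to 42-54 h and 42-54 to 60-72 h). Mitosis genes changed by 2.50 in the first step and by 0.04 in the second, cytotoxic genes by 0.08 and 1.20, and ribosome biogenesis genes by -0.31, -0.69 and -1.04.

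The steps fell at different times. Mitosis genes had a median difference of 2.50 between the 14 to 20 h and the 25 to 36 h arrays and of 0.04 from there to 42 to 54 h. Called cytotoxic genes had 0.08 and then 1.20, called glycolysis and hypoxia genes 0.39 and then 0.82, and called amino acid response genes 0.61, then 0.60, and -0.56 from 42 to 54 h to 60 to 72 h. Among the 521 genes that rose 2-fold or more, the 25 to 36 h mean (4 arrays) lay between both windows for 447, and for 236 it was nearer to the late one. Among the 215 that fell as much it lay between for 209 and nearer to the late one for 62. The 60 to 72 h mean (3 arrays) was beyond the late mean for 379 of the 521 and 198 of the 215. These intermediate and later groups were not tested.

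Of 12 regulators tied to Tr1 cells and IL-10 that were tested, 6 were higher, 4 lower and 2 not called. The lower share was near the 36.9% of all genes, so the members are described one by one. Il10 itself was below the filter: it ran from 10.4 to 13.5 on the middle arrays and was 37.7, 33.5, 58.7, 43.9 and 28.5 late, with no overlap between the groups. Without the filter its difference was 0.70 ± 0.08 (adjusted p = 6.9e-06). The 25 to 36 h arrays lay at 15.1 to 27.8, and the 11 ctrl arrays at 9.47 to 12.1. Il21, a cytokine that sustains Tr1 and follicular helper cells, ran from 52.6 to 452 (median 129.9) and was 698, 667, 1126, 582 and 569.5 late (difference 1.97 ± 0.37, adjusted p = 0.00035). Its late values all lay above the middle ones, and the 3 arrays of 60 to 72 h were back at 286 to 372. Nfil3, a leucine zipper factor linked to IL-10 production, ran from 20.5 to 58.5 and was 457, 372, 749, 770.4 and 794 late (difference 3.29 ± 0.20). Rora, a nuclear receptor, rose from 16.2 ± 4.06 to 117 ± 20.2 (difference 1.62 ± 0.09). Prdm1, which encodes Blimp-1, was 68.7, 22.1, 125, 235 and 62 late against 15.3 to 45.5 before (difference 1.07 ± 0.31, adjusted p = 0.0075), and its lowest late array, 42d, overlapped the middle group. Irf1 fell from 2055 ± 148 to 736 ± 153 (difference -1.46 ± 0.12) and Irf4, a factor induced by receptor signalling, from 4441 ± 482 to 2268 ± 254 (difference -0.96 ± 0.09). Ahr, the aryl hydrocarbon receptor, was 131, 102, 139.8, 109 and 102 late against a median of 201 before, a fall of 0.75 ± 0.15 (adjusted p = 0.00055). Maf lay at 9.73 to 15.3 on the probe set used, at the background level, and was not tested. Bhlhe40, named after its value was seen, rose by 2.30 ± 0.14.

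Among the factors that set helper lineages, Tbx21, which encodes T-bet, was high first and fell. Its 6 middle arrays ran from 1689 to 1977, and the late ones were 753, 703, 586, 511 and 528 (difference -1.55 ± 0.09, adjusted p = 5.6e-08). Values fell by more than the spread of either group, and the 25 to 36 h arrays lay between at 952 to 1474. Eomes, a related T-box factor, was 59.3, 41.2, 47.4, 44 and 37.6 late against 47.3 to 126 before (difference -0.43 ± 0.17, adjusted p = 0.044). The groups overlapped, and this call was lost under 16 of the alternatives tried, for example without the 54 h arrays (adjusted p = 0.17). Hlx, a partner of T-bet, rose (difference 0.82 ± 0.09), and Bcl6, the factor of follicular helper cells, fell by 0.51 ± 0.12. Foxp3 (14.6 to 17.8 and 15.5 to 16.6) and Gata3 (17.8 to 42.6 and 20.6 to 42.4) were below the filter, as was Havcr2.

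Of 21 receptor and feedback genes of the STAT pathway 8 were higher and 4 lower, the higher share being near the 31.8% of all genes. Socs3, the inhibitor that binds gp130, ran from 257 to 415 (median 311) and was 1309.6, 1455, 2145, 2398 and 2557 late (difference 2.47 ± 0.17). Bcl3, an IκB-family protein, rose by 1.45 ± 0.11 and Stat3 by 0.36 ± 0.06, the latter not called in the fit over both arms (adjusted p = 0.095). Il6st fell by 1.02 ± 0.12, with late values of 162, 105, 147, 148 and 89.6 all below the middle minimum of 231. The other receptor chain, Il27ra, had a difference of -0.03 ± 0.08 (adjusted p = 0.75), with late values of 256, 341, 259, 249.6 and 295 against 268 to 301 before. Socs1 fell by 0.77 ± 0.07 and Il12rb1, a chain of the IL-12 receptor, by 0.72 ± 0.09.

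Among co-inhibitory receptors, 2 of 6 tested rose and 4 fell, against 31.8% higher and 36.9% lower of all genes. The higher share was near that of all genes. Ctla4, which competes with CD28 for its ligands, ran from 66.5 to 120.4 and was 1524, 962, 2430.5, 2373 and 2228 late (difference 3.94 ± 0.21). Lag3, a receptor for MHC class II and a surface marker of Tr1 cells, rose from 199 ± 65.2 to 472 ± 83.9 (difference 1.15 ± 0.18). Pdcd1, which encodes PD-1, was 152, 164, 92.8, 66.6 and 107 late against a median of 347 before, a fall of 1.40 ± 0.18. Its ligand gene Cd274 fell from 674 ± 146 to 152 ± 36.3 (difference -1.94 ± 0.16), and the 25 to 36 h arrays, at 142 to 266, were already near the late level. Icos, a co-stimulatory receptor, had a difference of 0.26 ± 0.17 (adjusted p = 0.17); it was 1322, 724, 1473, 1671 and 1139 late, and without the low 42d array the difference was 0.45 (adjusted p = 0.0023). Tnfrsf18, which encodes GITR, and Cd2 rose by 0.96 ± 0.12 and 1.02 ± 0.12, while Cd5 and Cd6, which dampen receptor signals, fell by 0.68 ± 0.10 and by 0.93 ± 0.10.

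Counts in the following lists are small and stand against 31.8% higher and 36.9% lower of all genes. Cytotoxic genes gave 4 higher and 2 lower of 8 tested. Gzmb, the protease granzyme B, ran from 247 to 536 and was 4944, 3993, 7276, 8516 and 6491 late (difference 3.94 ± 0.22), with every late array above every middle one. Nkg7, a granule protein, rose from 344 ± 172 to 2289 ± 717 (difference 2.71 ± 0.31). Serpinb9, the inhibitor of granzyme B, fell by 0.60 ± 0.17, and Lamp1, a lysosomal membrane protein, by 0.38 ± 0.07. Effector cytokines had 4 higher and 3 lower of 9: Il3, a haematopoietic cytokine, rose by 1.85 ± 0.44 with late values of 471, 1300.4, 308, 286 and 308, of which 42d was the highest, and Tnf fell by 1.64 ± 0.17 from 985 ± 197 to 297 ± 88.6. Among TNF ligands Tnfsf8, which encodes the ligand of CD30, ran from 119 to 1163 and was 43.9, 47.5, 81.4, 80.5 and 83 late (difference -2.20 ± 0.40), while Tnfsf9, the ligand of 4-1BB, rose by 1.19 ± 0.12 and the lymphotoxin chain Ltb by 0.73 ± 0.21; 2 of 8 were higher and 4 lower. Of 6 chemokines tested, 2 were higher and 3 lower: Ccl3 (difference 1.60 ± 0.34) and Ccl5 (difference 0.93 ± 0.29) rose and Ccl1 (difference -0.72 ± 0.14) and Ccl22 (difference -0.81 ± 0.15) fell, as did Xcl1, named after its value was seen (difference -1.27 ± 0.29). The Ccl5 call was lost without the 54 h arrays (adjusted p = 0.091). In the BCL2 family, Bcl2, which protects from apoptosis, rose by 1.38 ± 0.16, and its relative Bcl2l1 and the pro-apoptotic Bid fell by 0.59 ± 0.13 and by 0.70 ± 0.11. These were among 5 higher and 2 lower of 10.

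Further lists held genes called in both directions, against the same 31.8% higher and 36.9% lower of all genes, and several shares were near these. Of 13 homing and chemokine receptor genes 8 were higher and 4 lower: Selplg, the selectin ligand PSGL-1, rose by 2.19 ± 0.17, and the adhesion molecules Cd44 and Itgb1 fell by 0.91 ± 0.06 and by 0.59 ± 0.09. Of 18 naive and quiescence genes 9 were higher and 4 lower (5 higher without the 54 h arrays). The chromatin organiser Satb1 rose by 1.41 ± 0.21 and the factor Myb by 1.03 ± 0.19, while the repressors Bach2 and Klf3 fell by 1.09 ± 0.08 and by 0.79 ± 0.07, and Slfn2, a gene of T cell quiescence, by 1.90 ± 0.19. Immediate early genes of receptor signalling gave 8 higher and 2 lower of 15, with Ier3 (3.18 ± 0.29) and Junb (0.89 ± 0.10) rising and Egr2 (difference -1.34 ± 0.18) and Myc (difference -0.76 ± 0.09) falling. Of 7 metallothionein and protease inhibitor genes 6 were higher and 1 lower. Mt1, a metallothionein that binds zinc, rose by 2.74 ± 0.31 on its brightest probe set, with -0.01 on the other one. Gadd45g, a stress gene that activates p38 signalling, rose by 2.75 ± 0.17 and the phosphatase Dusp14 by 0.58 ± 0.07, and Gadd45b and the signalling inhibitor Spry1 fell by 1.14 ± 0.28 and by 1.23 ± 0.30; that list had 4 higher and 4 lower of 8. Of 10 Treg genes tested 5 were higher and 2 lower, Ctla4 and Tnfrsf18 among the former, and Gpr83 and Cd83 the latter. In the ctrl arm 8 of these 10 were higher and none lower, with a median of 0.91 against 0.33 in the IL27 arm. Of 5 MHC class II genes 2 were higher and 1 lower; H2-Ab1 ran from 17.6 to 28.6 and was 99.95, 40.6, 193, 245 and 167 late, while H2-Aa fell by 0.74 ± 0.13 and H2-DMa, which loads class II molecules, rose by 0.59 ± 0.15. Mir155hg, the host transcript of miR-155, was 43.1, 70.7, 33, 34 and 80.3 late against 174 to 436 before (difference -2.05 ± 0.21). Pmepa1, a TGF-β target, fell by 2.08 ± 0.11. St6galnac4, a sialyltransferase, fell by 1.81 ± 0.16.

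**Figure D3:**
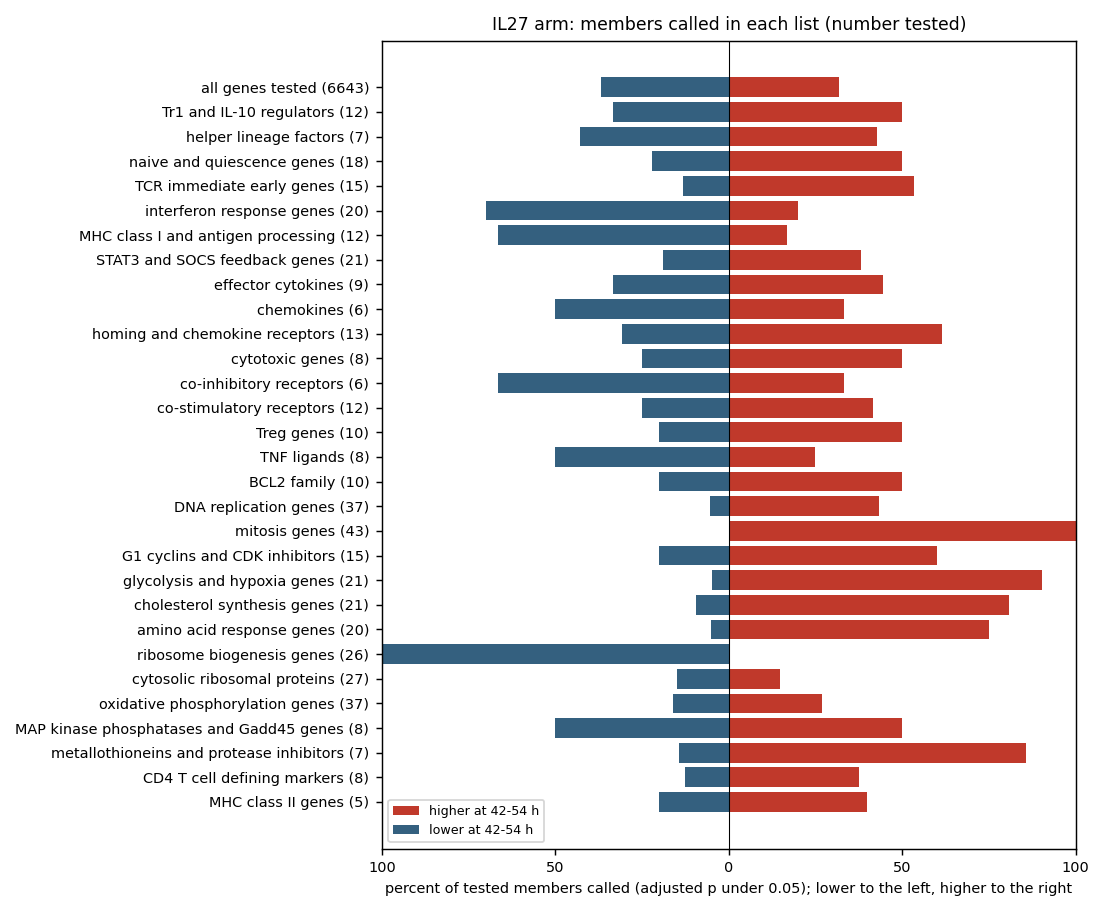
Percent of the tested members of each list called higher (right) or lower (left) at 42-54 h than at 14-20 h in the IL27 arm (x axis), with the number tested in brackets and all 6643 genes on the top row. Mitosis genes were all higher and ribosome biogenesis genes all lower, against 31.8% higher and 36.9% lower over all genes.

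Most interferon response genes fell in the IL27 arm. Of 32 listed, 28 had a named probe set and 20 were tested: 14 were lower, 4 higher and 2 not called, with a median of -0.70 against -0.04 over all genes (-0.82 and -0.15 with arrays scaled to one median). Irgm1, an immunity-related GTPase, ran from 1805 to 2179 and was 364, 293, 258, 267 and 189.7 late (difference -2.77 ± 0.12, adjusted p = 3.1e-09), the largest fall of any called gene whose groups did not overlap. Iigp1, another of these GTPases, ran from 2083 to 3238 and was 824, 656, 672, 414 and 181 late (difference -2.30 ± 0.28). At 25 to 36 h its 4 arrays ran from 1656 to 3297, within reach of the middle group, whereas those of Irgm1 ran from 658 to 1982. Irgm2 fell by 1.18 ± 0.10, with late values of 231, 229.8, 199.8, 216 and 181. Usp18, which restrains interferon receptor signalling, rose by 0.93 ± 0.19 and the RNA sensor Ifih1 by 0.57 ± 0.13. Of 12 MHC class I and antigen processing genes 8 were lower and 2 higher, against 36.9% lower and 31.8% higher of all genes. Their median was -0.31, and -0.44 with arrays scaled to one median. The chaperone Calr fell by 0.78 ± 0.07 and the trimming peptidase Erap1 by 0.82 ± 0.08, while the proteasome subunit Psmb10 rose by 0.47 ± 0.09. H2-D1, a class I heavy chain that close relatives could cross-hybridise with, had a difference of 0.14 ± 0.05, which was not called in most settings (adjusted p = 0.97 with arrays scaled to one median).

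Most of the course was shared with the ctrl arm, where the same windows gave 1862 of 6630 genes higher (28.1%) and 2208 lower (33.3%). Both courses called 3457 genes with the same sign, which is 75.7% of the IL27 calls and 84.9% of the ctrl calls; they share no array. Only 47 genes were called in both with opposite signs. The difference between the courses was tested directly, as the IL27 course minus the ctrl course: 150 of 6803 genes had a higher course in the IL27 arm (2.20%) and 173 a lower one (2.54%). Arrays of one time and suffix in both arms deviated together, and with time and suffix as a replicate block 1347 genes were called, 712 higher and 635 lower, all 323 called without it among them. Adjusted p-values of this direct test are those without the block unless the block is named. Without this block the count fell to 161 when arrays of one time were averaged, to 135 without the suffix d arrays, to 142 without the 16 h arrays and to 174 without the 54 h arrays, and it was 513 without the IL27 42d array. The ctrl 48 h array stood apart from the other late ctrl arrays in several genes, for example Mt1 with 189.8, 130.2, 2658, 190.4 and 176 over the 5 late ctrl arrays in the same order, Bnip3 with 708, 519, 4167, 1089 and 1020.1, and the glycolysis and hypoxia list with a mean of 11.08 against 9.95 to 10.21. Without it 422 genes were called.

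By list, the direct test called many interferon genes and, without the replicate block, none of the cell cycle genes listed. Other lists had calls too, against 2.20% higher and 2.54% lower of all genes. Metallothionein and protease inhibitor genes gave 3 higher and 1 lower of 7, and effector cytokines 1 higher and 3 lower of 9. Homing and chemokine receptor genes gave 1 higher and 3 lower of 13. None of the 43 mitosis genes, 37 replication genes and 26 ribosome biogenesis genes was called. With the replicate block 712 of all 6803 genes were higher and 635 lower, and the block counts in this paragraph stand against those. There 8 mitosis genes were higher, 8 of 38 replication genes higher and 1 lower, and 1 ribosome biogenesis gene lower. Of the 20 interferon genes 14 had a lower course in the IL27 arm and none a higher one (16 of 21 with the block). In the ctrl arm 10 of the 18 tested rose, none fell, and the median was 0.42. Of the 14, 12 were brighter in the IL27 arm at 14 to 20 h and 3 at 42 to 54 h, by group means whose difference within a window was not tested here. Irgm1 ran from 265 to 710.4 and then 628, 424, 409, 535 and 465.5 in the ctrl arm, a difference of 0.20 ± 0.22 (adjusted p = 0.44), and the difference between the courses was -2.97 ± 0.27 (adjusted p = 3.1e-07). Iigp1 rose in ctrl from a median of 377 to 1458, 909, 996, 1288 and 700.4 (difference between courses -3.66 ± 0.44). Gbp10, a guanylate-binding protein, gave -2.29 ± 0.24, Irgm2 -1.91 ± 0.20 and Ifih1 -1.14 ± 0.20, the last with a larger rise in ctrl. Of the 12 MHC class I and antigen processing genes 5 had a lower course in the IL27 arm and none a higher one (9 with the block).

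**Figure D4:**
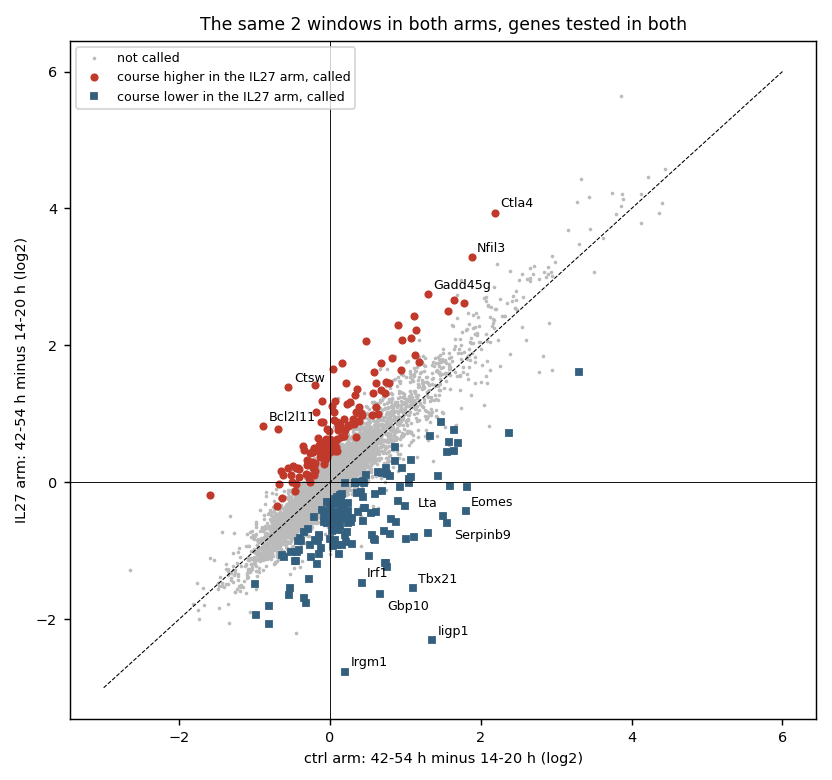
Late minus middle difference (log2) of each gene tested in both arms, with the ctrl arm on the x axis and the IL27 arm on the y axis; the dashed line marks equal courses, red circles genes with a higher course in the IL27 arm and blue squares those with a lower one (adjusted p under 0.05). Genes not called are grey and lie along the line, Ctla4 and Nfil3 lie above it, and Iigp1, Tbx21 and Irgm1 lie farthest below it.

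Of 6554 genes tested in both courses, 47 were called in both with opposite signs. Of these, 46 also passed the direct test, 33 of them lower in the IL27 arm and higher in ctrl, and 13 the reverse. The count needs a call in each arm, so it leaves out genes that were not called in one of them, such as Irgm1. Tbx21 rose in ctrl from a range of 91.3 to 556 to 614, 576, 495, 499 and 523, so that the late values of both arms overlapped; the difference between the courses was -2.65 ± 0.36 (adjusted p = 4.4e-05). Eomes rose in ctrl to 471, 218, 130.2, 609 and 298 from a median of 53.9 (difference between courses -2.22 ± 0.40, adjusted p = 0.0013, and 0.065 without the suffix d arrays). Serpinb9 (-2.15 ± 0.28), the lymphotoxin gene Lta (-1.98 ± 0.25) and Cd83 (-1.41 ± 0.28) fell in the IL27 arm and rose in ctrl. Csf2, which encodes GM-CSF, was 17.1, 106, 18.5, 22.2 and 53.5 on the late IL27 arrays and below the filter there, against 318, 1065, 722, 437 and 722 on the late ctrl arrays (difference between courses -2.73 ± 0.35, adjusted p = 2.1e-05). Tmem35a ran from 204 to 422 and then 51.2, 39.6, 41.4, 29.6 and 48.1 in the IL27 arm, with ctrl at 8.74 to 37.7 on all 11 arrays (difference between courses -2.45 ± 0.20). Over the 173 genes with a lower course in the IL27 arm the median course was -0.53 there and 0.28 in ctrl, and the IL27 mean was the higher of both arms for 127 at 14 to 20 h and for 21 at 42 to 54 h.

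Genes with a higher course in the IL27 arm had a median course of 0.83 there and of 0.02 in ctrl (150 genes). The IL27 mean was the higher of both arms for 41 of them at 14 to 20 h and for 142 at 42 to 54 h. Plac8, a cysteine-rich protein of lymphoid and myeloid cells, ran from 21.1 to 41.1 and then 1112, 402, 1607, 2105 and 519.7 in the IL27 arm, and 16.6 to 31.7 over all 11 ctrl arrays (difference between courses 3.85 ± 0.38, adjusted p = 1e-06). It was high on every late IL27 array and at the background level on every ctrl array. Ctla2a, a cysteine protease inhibitor, was 552, 171, 1023, 1846 and 614 late against 26.9, 19.8, 37.5, 56.3 and 48.4 in ctrl (3.20 ± 0.46). Selp, the adhesion molecule P-selectin, was 419, 182, 694, 1054 and 475 against 28.8, 21.2, 54.4, 66 and 47.9 (2.77 ± 0.35). Serpinb5, the serpin maspin, was 49.9, 76.1, 189, 332 and 562 against 9.93 to 10.2 (2.33 ± 0.44). Il21 lay at 15.9 to 28.7 on the 11 ctrl arrays (1.82 ± 0.40, adjusted p = 0.0075) and likewise passed the filter through IL27 arrays alone. Ctsw, the protease cathepsin W, rose to 182, 143, 322, 531 and 396 while ctrl fell to 53.7, 48.7, 44.9, 66.5 and 76.4 (1.94 ± 0.28), and Bcl2l11, the pro-apoptotic protein Bim, was 1065, 598, 1074, 1093 and 792 against 452, 331, 570.1, 360.1 and 345 (1.70 ± 0.23). Ctla4 rose in both arms and more in the IL27 arm (1.75 ± 0.38, adjusted p = 0.0078), a call that was lost when arrays of one time were averaged and without the 16 h, the 54 h or the suffix d arrays. Nfil3 (1.41 ± 0.33) and Gadd45g (1.45 ± 0.28) also rose in both arms and more in the IL27 arm. Batf3 (0.57 ± 0.16) had a higher course in the IL27 arm as well. Prdm1 had a difference between courses of 1.07 ± 0.34 (adjusted p = 0.073, and 0.019 with the replicate block), Lag3 of 0.53 ± 0.27 (0.32 and 0.018) and Socs3 of 0.54 ± 0.30 (0.39 and 0.0036).

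**Figure D5:**
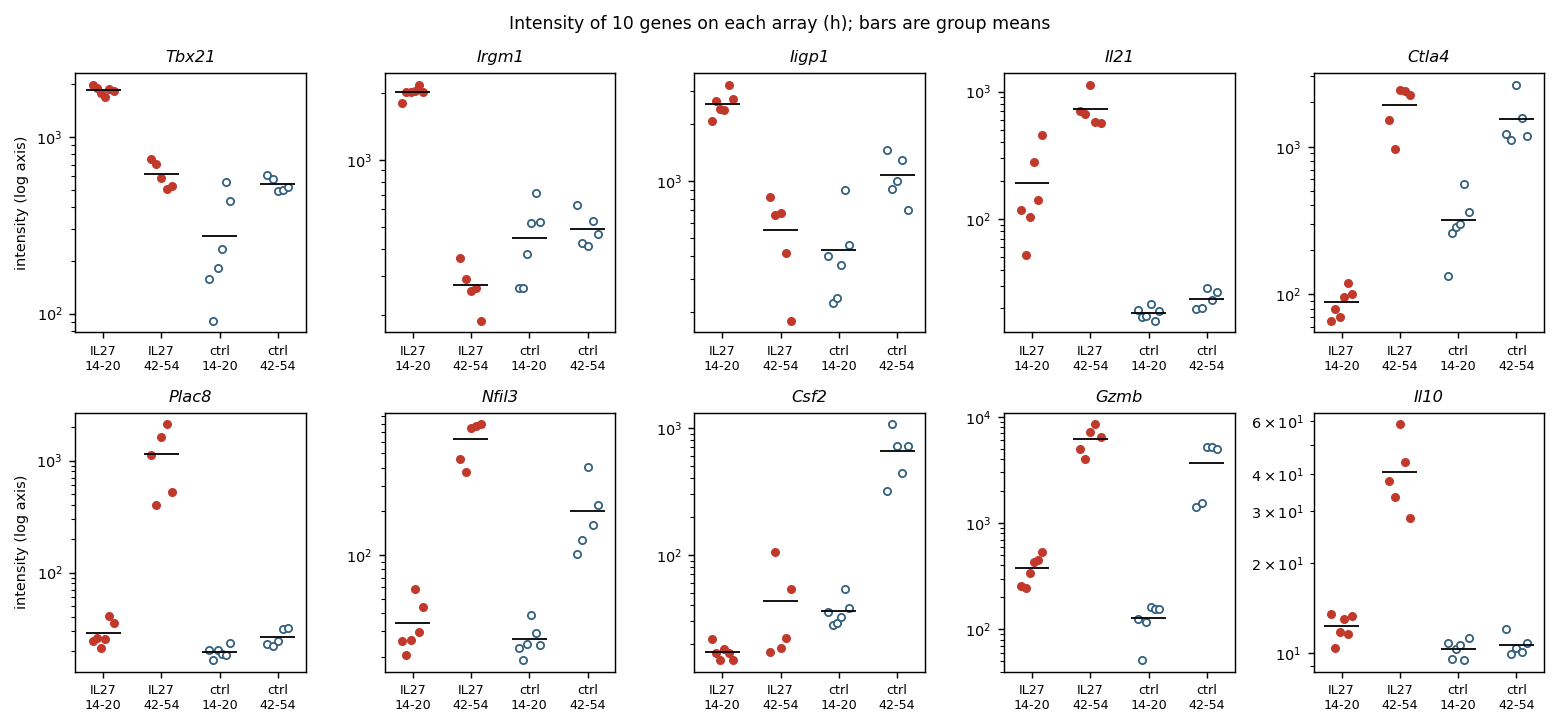
Intensity (y axis, log scale) of 10 genes on each array of the 4 groups (x axis; IL27 filled, ctrl open; bars are group means of 6 or 5 arrays). Tbx21, Irgm1 and Iigp1 fell in the IL27 arm, Il21, Plac8 and Il10 rose there and stayed low in ctrl, Csf2 rose in ctrl, and Ctla4, Nfil3 and Gzmb rose in both arms.

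The smaller set of Mouse430A_2 arrays holds 1 IL27 array at 16 h and 1 at 48 h of the same arm, which allow a description and no test, and whether they share RNA with the arrays above is not given in the labels. The 48 h minus 16 h difference had the sign of the course for 521 of the 521 genes that rose 2-fold or more and for 215 of the 215 that fell as much, and for 85.7% of all genes tested. The medians were 1.62 against 1.47 for the risers and -1.18 against -1.17 for the fallers. Tbx21 read 3009 and 831 there, Irgm1 3288 and 354, Gzmb 400.1 and 17446, and Il10 16.9 and 23.0.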

How the data were processed

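Naive mouse CD4 T cells were profiled on Affymetrix HT_MG-430A arrays from biotin-labelled cRNA. Values are intensity on a linear scale as deposited by the authors, 22626 probe sets per array; MAS5 is the one tool named, per the submitters' processing notes, and for the scaling the sources used here give nothing. Of the probe sets, 20173 have 1 gene symbol in the platform annotation, 942 have several and 1511 have none, which left 12291 genes. Each gene took its brightest probe set over the 52 HT_MG-430A arrays. Intensities became log2(intensity + 32), and genes for which 5 or more arrays of a fit exceeded the array's median were tested with limma 3.58.1 in R 4.3.3 (eBayes with trend, Benjamini-Hochberg adjustment, threshold 0.05), a procedure tested on simulated data. The fits were late against middle in the IL27 arm, the same in the ctrl arm, and the interaction of arm and window over 22 arrays.

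The arms share 11 times and suffixes. Deviations from the group means of the 11 pairs correlated by 0.173 to 0.866, and in 10 of 11 an array correlated best with its own partner. The main interaction fit, with its SE and adjusted p-values, did not use this pairing. The pairing entered only the alternative with time and suffix as a replicate block. The alternatives changed the pseudocount (1 or 100), the filter, the scaling, the probe set rule, the trend, the handling of suffix d and of arrays of one time, or left out arrays, times or suffix d.

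Named genes are the 12 called genes that moved most in each direction with groups that did not overlap, the 8 with the largest interaction each way, the 2 members with the smallest adjusted p each way of every list, and a fixed set of regulators and receptors, of which some are not reported here. The comparison, the gene lists and these genes were chosen with earlier results of these data known. Promoter sequences are RefSeq's (GRCm38.p6); 27025 were searched. Genes with no named probe set are not analysed here.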

Additional observations from a re-analysis of the deposited data

Results flagged for a closer look

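On 276 groups of arrays (138 named genes in both windows of the IL27 arm), 19 had a highest or lowest array far from the others by Dixon's criterion; chance gives about 1 in 20. The 20 h array without suffix was the one apart in 8 middle groups: the division and replication genes Mki67 at 321.9, Nusap1 at 74.78, Cdca3 at 140.2, Tk1 at 250.8, Rrm1 at 1187.1 and Cdkn2c at 87.08, together with Scd1 at 19.91 and, on the low side, Il6st at 230.6. The late array 42d was apart in 5: Bcl6 at 42.39, Bach2 at 589.3, Il3 at 1300.4, Ccl22 at 20.68 and Ccnd2 at 3017.9. The others were Il21 at 1125.9 on the 48 h array, Ccl5 at 72.29 and Hsd17b7 at 186.6 on 16d, Ccl1 at 92.13 on the 14 h array, Maf at 9.73 on the 42 h array and Ahr at 351.1 on the 18 h array.

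For 35 of the named genes the IL27 course differed from the ctrl course in limma's interaction test (values are log2, IL27 course minus ctrl course). Of these, 16 had been named for their large called differences in this same test, so the count is no finding about the named genes. Over all 6803 genes tested, 323 were called without a replicate block and 1347 with it. With time and suffix as a replicate block the same 35 and 33 further ones of the 134 tested were called, among them Tgm2 (adjusted p = 0.068 without the block and 0.00014 with it), Tnfsf8 (0.051 and 8.5e-05), Bcl2 (0.14 and 0.00051), Tk1 (0.55 and 0.0012), Cdkn2d (0.16 and 0.0016) and Il27ra (0.079 and 0.007). The 12 with a higher course in the IL27 arm were Plac8 (3.85), Ctla2a (3.20), Selp (2.77), Serpinb5 (2.33), Ctsw (1.94), Il21 (1.82), Ctla4 (1.75), Bcl2l11 (1.70), Gadd45g (1.45), Nfil3 (1.41), Hlx (0.87) and Batf3 (0.57). Among the 23 with a lower one, the interferon-inducible and T-box genes were Iigp1 (-3.66), Irgm1 (-2.97), Tbx21 (-2.65), Gbp10 (-2.29), Eomes (-2.22), Irgm2 (-1.91), Irf1 (-1.89), Socs1 (-1.32) and Ifih1 (-1.14). Cytokine and receptor genes were Csf2 (-2.73), Lta (-1.98), Cd83 (-1.41), Tnf (-1.10), Cd274 (-0.96) and Il12rb1 (-0.94). The adhesion genes Cd44 (-1.01) and Itgb1 (-0.83) were lower too, as were Tmem35a (-2.45), Serpinb9 (-2.15), Pmepa1 (-1.27), St6galnac4 (-1.0), Dusp14 (-0.99) and Hsd17b7 (-0.65).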

How the results depend on the processing

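The count for the IL27 course, 4566, stayed within 1.5 times under every alternative but the one with the suffix d arrays alone (2 per group), which gave 2192; there the ctrl course gave 1905 in place of 4070. Leaving out 1 array at a time gave 4319 to 4590 for the IL27 course and 3737 to 4077 for the ctrl course. With arrays scaled to one median, 35.1% of IL27 calls were higher against 46.3%, and 34.3% of ctrl calls against 45.7%. The interaction was less stable: from 323 calls it went to 161 with arrays of one time averaged, 189 with arm and time as a random block (correlation 0.337), 135 without suffix d, 17 with suffix d alone, 142 without the 16 h arrays and 174 without the 54 h arrays. Leaving out 1 array gave 224 (without IL27 54) to 513 (without IL27 42d). With time and suffix as a replicate block it gave 1347. The suffix d settings hold fewer arrays; for the others the cause was not tested. Of 4210 values of 132 named genes in the IL27 course under these alternatives, 4129 kept direction and side of the threshold, 78 lost the call and 3, all of Icos, gained it. In the interaction this was counted only for the 16 genes with the largest differences: of their 686 values 671 kept the call and 15 lost it, and 11 of the 16 lost it under at least 1 alternative. None of these values reversed. Dim genes such as Il10 are limited by their signal over background, and 5648 genes fell below the filter.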
